A study of Homo sapiens with 12 samples.

Results

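The replication-dependent histone genes of the HIST clusters were followed across 12 RNA sequencing libraries of OCI-AML2, a cell line from a human acute myeloid leukaemia. They were taken as every row of the deposited count table whose symbol starts with HIST1H, HIST2H, HIST3H or HIST4H, which gave 89 of the 55765 genes in the table. By histone type these were 8 H1, 22 H2A, 26 H2B, 17 H3 and 16 H4 genes, pseudogenes included, with 67 in the HIST1, 17 in the HIST2, 4 in the HIST3 and 1 in the HIST4 group. All cells were single-cell clones in which doxycycline was to switch on MEF2C, a transcription factor, in its S222A form (alanine in place of a serine) or as the wild type (WT). The 4 groups, with 3 libraries each, were S222A induced, S222A uninduced, WT induced and WT uninduced. Cultures of 3 ml received 600 ng doxycycline (induced) or vehicle (uninduced) for 48 h, and cells given doxycycline without a MEF2C construct were not analysed here. The labels do not say how many clones stand for each construct, or that the 3 libraries of a group were separate cultures, so every p-value measures the spread between these libraries, which may be technical, and construct and clone cannot be told apart.

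Core histones H2A, H2B, H3 and H4 form the nucleosome around which DNA is wound, and H1 binds the linker between nucleosomes. Most cluster genes are transcribed during S phase, in step with DNA replication, and their mRNAs end in a conserved stem-loop in place of a poly(A) tail. Some members can also be read past the stem-loop to a downstream polyadenylation site, and HIST1H1C, HIST1H2AC, HIST1H2BC, HIST1H2BD, HIST1H2BK and HIST2H2BE are known for such transcripts. Many H2A and H2B genes sit head to head and share the promoter region between them, where an octamer element and CCAAT and TATA boxes are typical. In bulk RNA, fewer cells in S phase and less histone RNA per cell cannot be told apart.

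Promoter regions are shown for the genes on which the results below turn, with the head-to-head partner HIST1H2BC of HIST1H2AC. Each line gives the 150 bases before the RefSeq transcript start (assembly GRCh38.p14), 5′ to 3′ on the strand of the gene, and capitals mark the octamer ATTTGCAT, the CCAAT box and the TATAAA box on either strand.
HIST1H2AC (chr6:26124022-26124171, plus strand): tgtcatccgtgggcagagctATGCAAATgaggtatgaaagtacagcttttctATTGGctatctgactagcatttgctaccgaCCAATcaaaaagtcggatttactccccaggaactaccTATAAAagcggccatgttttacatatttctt
HIST1H2BC (chr6:26123927-26124076, minus strand): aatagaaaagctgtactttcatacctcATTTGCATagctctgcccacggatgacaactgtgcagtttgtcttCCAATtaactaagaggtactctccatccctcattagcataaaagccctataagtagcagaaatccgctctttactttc
HIST1H2BK (chr6:27146859-27147008, minus strand): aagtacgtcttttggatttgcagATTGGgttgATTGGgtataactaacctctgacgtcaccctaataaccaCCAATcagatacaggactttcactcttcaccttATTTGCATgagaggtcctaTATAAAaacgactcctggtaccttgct
HIST2H2BE (chr1:149886683-149886832, minus strand): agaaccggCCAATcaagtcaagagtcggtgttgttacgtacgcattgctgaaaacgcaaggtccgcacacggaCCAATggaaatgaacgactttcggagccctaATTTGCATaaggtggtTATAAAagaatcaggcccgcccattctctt
The windows of HIST1H2AC and HIST1H2BC overlap, so the octamer in both lines is 1 site read from opposite strands. Promoter windows of 300 bases (250 before and 50 after the start) were held for 66 of the 89 genes. The octamer stood in 39.4% of these 66 windows and in 1.80% of all 27305 RefSeq promoter windows. By type it stood in 11 of 16 H2A, 14 of 18 H2B and 1 of 13 H3 windows, and in 0 of 6 H1 and 0 of 13 H4 windows. CCAAT was held by 84.8% of the histone windows against 35.7% of all windows, and TATAAA by 66.7% against 3264 of the 27305 windows. The MEF2 consensus, whose letters can overlap a TATAAA box, was matched in 13.6% of the histone windows and 3.09% of all windows, and in none of the 4 regions printed here. A match describes letters in a window and does not show binding, and no match says only that these letters are not in that window.

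Of the 89 genes, 28 had no count in any library, 14 had 1 to 9 counts over all libraries and 47 had 10 or more. After the filter on low counts 33 genes were tested, 6 H1, 10 H2A, 9 H2B, 4 H3 and 4 H4, and 56 were not. The genes without a count included HIST3H3 and HIST1H2BA, both known from testis. Of those not tested, HIST2H2BC (76), HIST1H4L (72), HIST1H2BO (63) and HIST1H2AI (47) had the most counts. HIST2H3A and HIST2H3C, and HIST2H4A and HIST2H4B, share every stretch of 50 bases of their coding sequence in GENCODE 29, and their totals over 12 libraries were 0, 0, 3 and 1 counts. HIST1H4J and HIST1H4K are likewise identical in every such stretch, yet the table gave HIST1H4J 124 counts and HIST1H4K 4 counts, so this split between copies is uncertain. Of the 28 genes without a count, 17 had no shared stretch and 3 had all stretches shared. All stretches were shared in 4 of the 14 genes with 1 to 9 counts and in 1 of the 33 tested genes. The same held for 1 of 14 genes with 10 or more counts that were not tested. Of the genes named most below, HIST1H2AC shared 2.03% of its stretches with another member, HIST1H2BK 22.6% and HIST2H2BE 52.4%, mostly with HIST2H2BF. The filter asked for at least 3.05 CPM (counts scaled to a library of 1000000 counts) in 3 libraries. HIST1H1PS1, HIST1H3D and HIST1H4J passed it only through S222A induced libraries, so HIST1H1PS1 and HIST1H3D had to be higher there, and the other 30 would have passed without them.

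Library totals ran from 875710 to 13134791 counts, and a floor of 3 counts equals 0.239 to 3.36 CPM, a limit of counting error only. The deepest library of each group (S222A induced 3, S222A uninduced 1, WT induced 1 and WT uninduced 2) held 5412391 to 13134791 counts, against 875710 to 4489036 in the other 8 libraries, and stood apart in its histone RNA. The HIST genes took 0.196% to 0.304% of counts in these 4 libraries and 0.393% to 0.742% in the other 8, and 5.03% to 7.004% and 6.86% to 9.27% of counts were mitochondrial. S222A uninduced 3, with 930960 counts, had the highest histone share. MEF2C RNA was 605.3 to 956.1 CPM in all libraries and was not called on S222A induction (log2 0.34 ± 0.16 SE, edgeR quasi-likelihood adjusted p = 0.285) or WT induction (log2 0.08 ± 0.16, adjusted p = 1), and its reads do not separate construct from endogenous gene. The myeloid markers PTPRC (516 to 760 CPM), CD33, SPI1 and CSF3R were present in every library, MPO was low at 0.693 to 19.3 CPM and fell on S222A induction (log2 -1.71, adjusted p = 0.0377), and CEBPA had no count. The markers of other cell types that were in the table summed to 0 to 3.68 CPM in each library.

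Which histone genes differed when the S222A line received doxycycline was asked first. HIST1H2AC, a replication-dependent H2A gene, was 10.6-fold higher, and HIST1H2BK, an H2B gene, 2.43-fold higher. Of the 33 tested histone genes 30 were not called, where 4.45% of all genes tested were called. Most intervals were wide, so an absent call leaves a change open. HIST1H2AC stood at 59.2, 68.9 and 63.8 CPM in S222A induced libraries, against 5.29, 7.39 and 5.48 CPM in S222A uninduced libraries. All 3 induced libraries were high, and the groups did not overlap. The log2 fold change was 3.41 ± 0.24 SE (95% interval of the fold 7.48 to 15.2, edgeR quasi-likelihood adjusted p = 5.99e-06). It was 3.48 within the deepest libraries and 3.24 within the others, and 3.39 without S222A uninduced 3.

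HIST1H2BK stood at 512, 411 and 413 CPM in S222A induced and at 151, 176 and 226 CPM in S222A uninduced libraries. Here too every induced library lay above every uninduced one. The log2 fold change was 1.28 ± 0.23 SE (fold interval 1.71 to 3.45, adjusted p = 0.00832), with 1.45 within the deepest libraries and 1.20 within the others. Without S222A uninduced 3 it was 1.45 (adjusted p = 0.0129).

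HIST1H1PS1, an H1 pseudogene, was the third gene called. Its levels were 6.93, 4.01 and 3.27 CPM in S222A induced and 0.721, 0.410 and 1.10 CPM in S222A uninduced libraries, from 108 counts over all 12 libraries. The groups did not overlap, and the log2 fold change was 2.70 ± 0.67 SE (fold 6.48, interval 2.37 to 17.7, adjusted p = 0.0397). This call was lost without any 1 of the 6 S222A libraries, with an adjusted p between 0.0613 and 0.163. In GENCODE 29, 1039 of the 1080 bases of HIST1H1PS1 lie under a gene on the opposite strand, AL031777.3, which also spans HIST1H3D. The strand setting of the counting is not given in the sources used here, so reads of HIST1H1PS1 and AL031777.3 cannot be told apart. HIST1H3D lies on the same strand as AL031777.3 over its 411 bases, so strand would not separate their reads.

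In all, 3 of the 33 tested histone genes were called on S222A induction and all 3 were higher, HIST1H1PS1 among them, which was tested only because it was high there. Over all 11474 genes tested 4.45% were called, 2.8% higher and 1.66% lower. The median log2 fold change of the 33 was -0.15, with 10 positive and 23 negative, against 0.01 over all genes. By type, 1 of 6 H1, 1 of 10 H2A, 1 of 9 H2B, 0 of 4 H3 and 0 of 4 H4 genes were called.

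**Figure D1:**
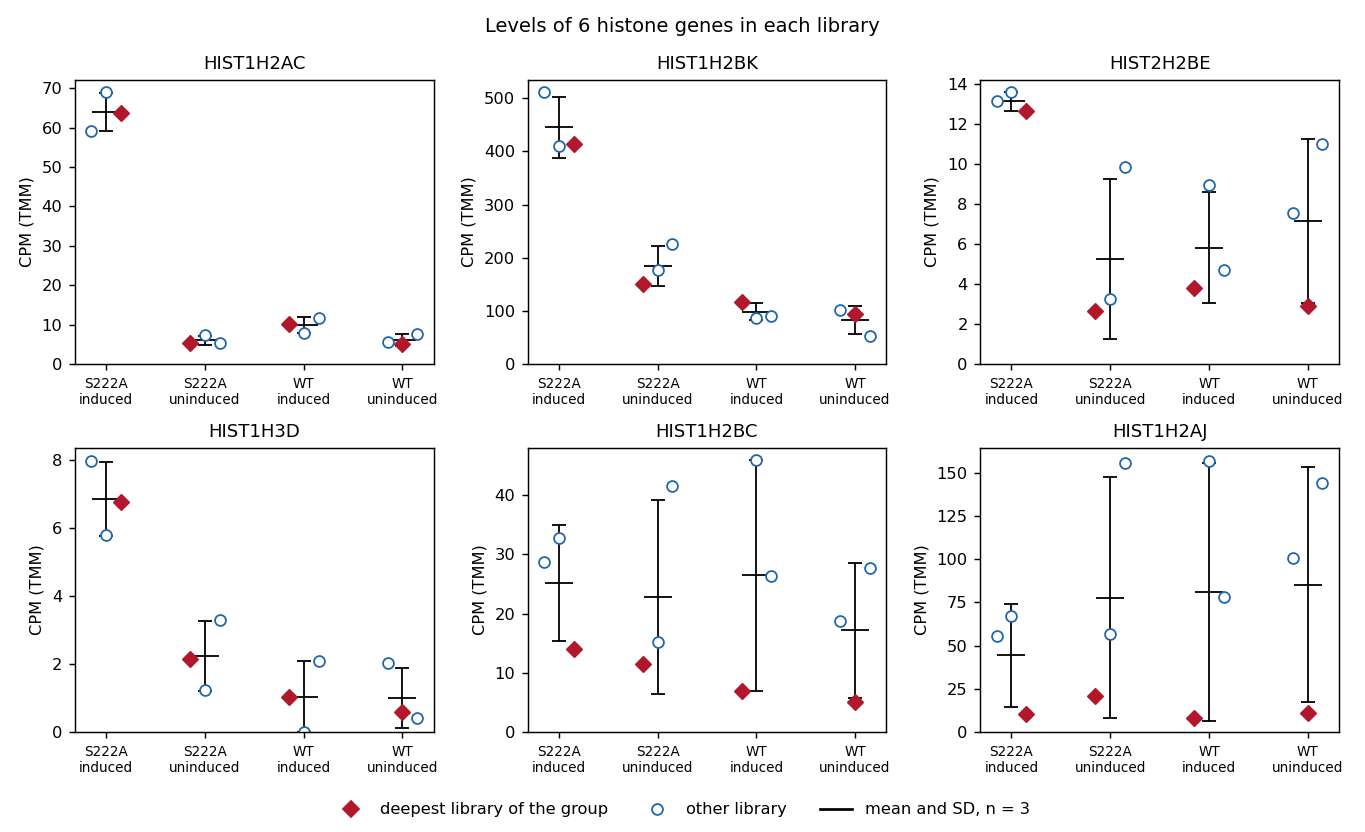
Level of 6 histone genes in each library, in CPM with TMM factors (y axis, from 0), by group; filled diamonds are the deepest library of each group, open circles the other libraries, and bars the mean and SD of 3 libraries. HIST1H2AC and HIST1H2BK are high in all 3 S222A induced libraries, deepest included, while HIST1H2BC and HIST1H2AJ are lowest in the deepest library of every group.

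Among the genes not called were 3 whose groups did not overlap, and how often this held over all genes was not counted. Of these 3, HIST1H3D passed the filter only through S222A induced libraries. HIST2H2BE, an H2B gene, stood at 13.2, 13.6 and 12.7 CPM in S222A induced and 2.64, 3.28 and 9.86 CPM in S222A uninduced libraries. Its uninduced libraries spread widely, with replicate 3 close to the induced ones. The log2 fold change was 1.68 ± 0.53 SE (adjusted p = 0.0924), and without S222A uninduced 3 it was 2.18 (adjusted p = 0.0439). HIST1H3D, an H3 gene, had 7.97, 5.80 and 6.78 CPM in induced and 2.16, 1.23 and 3.29 CPM in uninduced libraries (log2 1.72 ± 0.55, adjusted p = 0.0946). HIST1H2BN had 9.70, 5.57 and 6.30 CPM in induced and 3.60, 3.69 and 4.38 CPM in uninduced libraries (log2 0.90 ± 0.37, adjusted p = 0.21). AL031777.3 also spans HIST1H2AD, an H2A gene without a count, and HIST1H2BN spans HIST1H2AK and HIST1H2AL, so reads there cannot be told apart either.

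HIST1H4C, an H4 gene, held 60.0% to 84.3% of all histone cluster counts in each library. It stood at 2606, 2581 and 1632 CPM in S222A induced and 2343, 2585 and 5231 CPM in S222A uninduced libraries, and the groups overlapped. Its log2 fold change of -0.57 ± 0.36 (interval -1.34 to 0.20) was not called (adjusted p = 0.43). The linker histone genes HIST1H1B, HIST1H1C, HIST1H1D and HIST1H1E had log2 fold changes of -0.59, 0.18, -0.15 and -0.60, with groups that overlapped. The lowest values were those of HIST1H3C (-1.13, adjusted p = 0.655), an H3 gene, HIST2H2BF (-1.03, adjusted p = 0.735), an H2B gene, and HIST1H2AL (-0.86, adjusted p = 0.599), an H2A gene. Intervals were wide for most genes: that of HIST1H2AJ, the H2A gene with a log2 of -0.73, ran from -3.40 to 1.94, and a change of several fold would not have been detectable.

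**Figure D2:**
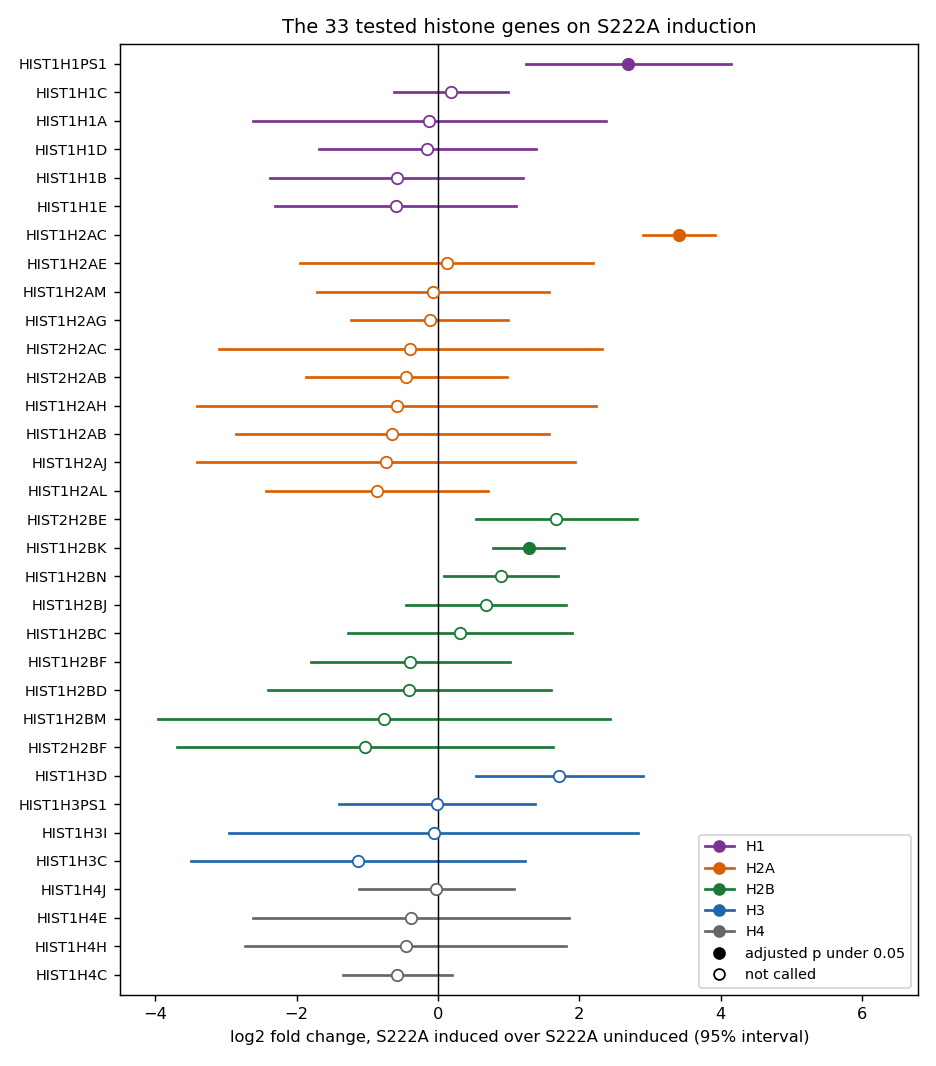
Log2 fold change, S222A induced over S222A uninduced, of the 33 tested histone genes (points) with 95% intervals (lines), grouped by histone type in colour; filled points have an edgeR quasi-likelihood adjusted p under 0.05. HIST1H2AC at 3.41 has both the largest change and a narrow interval, HIST1H2BK and HIST1H1PS1 are the other filled points, and most intervals include 0.

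The head-to-head neighbours of the genes that were higher gave different values. HIST1H2BC, which shares its promoter region with HIST1H2AC, stood at 28.7, 32.8 and 14.1 CPM in S222A induced and 11.5, 15.2 and 41.6 CPM in S222A uninduced libraries. The groups overlapped, and its log2 fold change was 0.31 ± 0.73 (adjusted p = 0.886). Of 16 such H2A and H2B pairs, 5 had both genes tested. HIST1H2BK at 1.28 has the partner HIST1H2AH at -0.58, and HIST2H2BE at 1.68 has HIST2H2AC at -0.39. HIST1H2AG and HIST1H2BJ had log2 fold changes of -0.12 and 0.67, and HIST1H2AJ and HIST1H2BM of -0.73 and -0.77. The difference between partners was not tested. In GENCODE 29 transcripts, a search by sequence found a stem-loop for 26 of the 89 genes. The annotated transcript of HIST1H2BK, like some others, ends with its coding sequence, at 381 bases, and so could not show one. The stem-loop is shown here for HIST1H2AC and HIST2H2BE with the loop in capitals.
HIST1H2AC and HIST2H2BE: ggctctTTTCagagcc
The longest annotated HIST1H2AC transcript goes on for 1128 bases after it and that of HIST2H2BE for 1729 bases. Of the 6 genes with described polyadenylated transcripts, HIST1H2AC and HIST1H2BK were called, and HIST1H1C (0.18), HIST1H2BC (0.31), HIST1H2BD (-0.40) and HIST2H2BE (1.68) were not.

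Doxycycline in the WT line gave no called histone gene. Of the 33, 0 passed edgeR's quasi-likelihood test, as against 0.00872% of all genes, and DESeq2 and limma-voom also called 0. At an unadjusted p under 0.05 there was 1 of the 33, HIST1H2AC, against 195 of all 11474 genes. HIST1H2AC stood at 10.1, 7.85 and 11.8 CPM in WT induced and 5.55, 5.02 and 7.76 CPM in WT uninduced libraries. The WT induced libraries were all higher, by a narrow margin. The log2 fold change was 0.78 ± 0.25 SE (fold 1.72, interval 1.19 to 2.48, adjusted p = 1). HIST1H2BK had 117, 87.4 and 90.8 CPM in WT induced and 102, 93.5 and 53.9 CPM in WT uninduced libraries, which overlap (log2 0.25 ± 0.24). HIST2H2BE and HIST1H2BN had log2 fold changes of -0.43 and -0.68 in the WT line. HIST1H4C, at 0.04 ± 0.35, had an interval of -0.73 to 0.81.

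The difference of the 2 induction effects, S222A minus WT, was called for HIST1H2AC alone among the 33 genes (log2 2.63 ± 0.34 SE, interval 1.89 to 3.37, edgeR quasi-likelihood adjusted p = 0.0184), where 0.0784% of all genes were called, 0.0523% with a higher S222A effect. This rests on 12 libraries, and the call was lost without S222A induced 1, 2 or 3, S222A uninduced 1 or 2, WT induced 2 or 3, or WT uninduced 1, with log2 values from 2.44 to 2.80 and adjusted p up to 0.0917 over the 12 fits. HIST1H2BK (1.03 ± 0.33, adjusted p = 0.529), HIST2H2BE (2.10 ± 0.76, adjusted p = 0.622) and HIST1H2BN (1.58 ± 0.56, adjusted p = 0.598) were not called.

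Between the induced lines, 4 of the 33 genes were called, all higher in S222A induced than in WT induced cells, where 6.34% of all genes were called, 3.73% higher and 2.61% lower. HIST1H2AC was 6.19-fold higher (log2 2.63 ± 0.22, adjusted p = 1.94e-05) and HIST1H2BK 4.49-fold higher (log2 2.17 ± 0.24, adjusted p = 0.000235). HIST1H3D had 7.97, 5.80 and 6.78 CPM in S222A induced and 1.02, 0 and 2.11 CPM in WT induced libraries, where the 0 lies in the shallowest library with a floor of 3.36 CPM (log2 2.37 ± 0.57, adjusted p = 0.0273). HIST1H2BN had 9.70, 5.57 and 6.30 CPM in S222A induced and 2.05, 2.24 and 3.42 CPM in WT induced libraries (log2 1.43 ± 0.38, adjusted p = 0.0435). The groups did not overlap for these 4 genes, and HIST1H3D passed the filter only through S222A induced libraries, so it could be tested here only if higher in them. The calls of HIST1H3D and HIST1H2BN were lost without any 1 of the 6 libraries, with adjusted p of 0.0504 to 0.0953 and 0.0753 to 0.159.

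Between the uninduced lines no histone gene was called, with 0.392% of all genes called (0.34% higher and 0.0523% lower). At an unadjusted p under 0.05 there were 2 of the 33 histone genes, against 858 of all 11474 genes. DESeq2 called 1 histone gene, where it called 0.723% of all genes. HIST1H2BK, which DESeq2 called, stood at 151, 176 and 226 CPM in S222A uninduced and 102, 93.5 and 53.9 CPM in WT uninduced libraries. These groups did not overlap (log2 1.14 ± 0.24, edgeR adjusted p = 0.0717; DESeq2 adjusted p = 0.00282). All 3 S222A uninduced libraries were above all 3 WT uninduced ones, and the edgeR test did not call the difference. HIST1H2AC, by contrast, was at 5.29, 7.39 and 5.48 CPM in S222A uninduced and 5.55, 5.02 and 7.76 CPM in WT uninduced libraries, with an interval of the log2 difference of -0.57 to 0.56. HIST1H2AG, an H2A gene, had a log2 difference of 1.58 ± 0.58 (adjusted p = 0.512), and HIST1H1D, an H1 gene, of 1.51 ± 0.77 (adjusted p = 0.744).

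Summed over all members of a type, histone RNA overlapped between S222A induced and S222A uninduced libraries in all 5 types. H2B members summed to 585 ± 99.1 CPM in S222A induced, 353 ± 163 in S222A uninduced, 268 ± 102 in WT induced and 225 ± 79.7 CPM in WT uninduced libraries (SD, n = 3 each), and the H2B sum of 531 CPM in S222A uninduced 3 lay above the 489 CPM of S222A induced 3. The S222A induced H2B sums, 489 to 687 CPM, all lay above those of WT induced libraries, 157 to 360 CPM, and WT uninduced libraries, 133 to 276 CPM. HIST1H2BK alone averaged 445 CPM of the S222A induced sum. H2A members summed to 216 ± 94.6 CPM in S222A induced and 246 ± 212 in S222A uninduced libraries, and to 207 ± 148 in WT induced and 208 ± 152 CPM in WT uninduced libraries. H1 members summed to 564 ± 168 CPM in S222A induced and 688 ± 371 in S222A uninduced libraries, and to 755 ± 421 in WT induced and 658 ± 403 CPM in WT uninduced libraries. H4 members summed to 2343 ± 602 in S222A induced and 3486 ± 1695 CPM in S222A uninduced libraries, mostly HIST1H4C. The S222A induced H4 sums, 1648 to 2715 CPM, lay below those of WT induced libraries, 2747 to 3579 CPM, by a narrow margin. In all 5 types the deepest library of each group had the lowest sum.

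**Figure D3:**
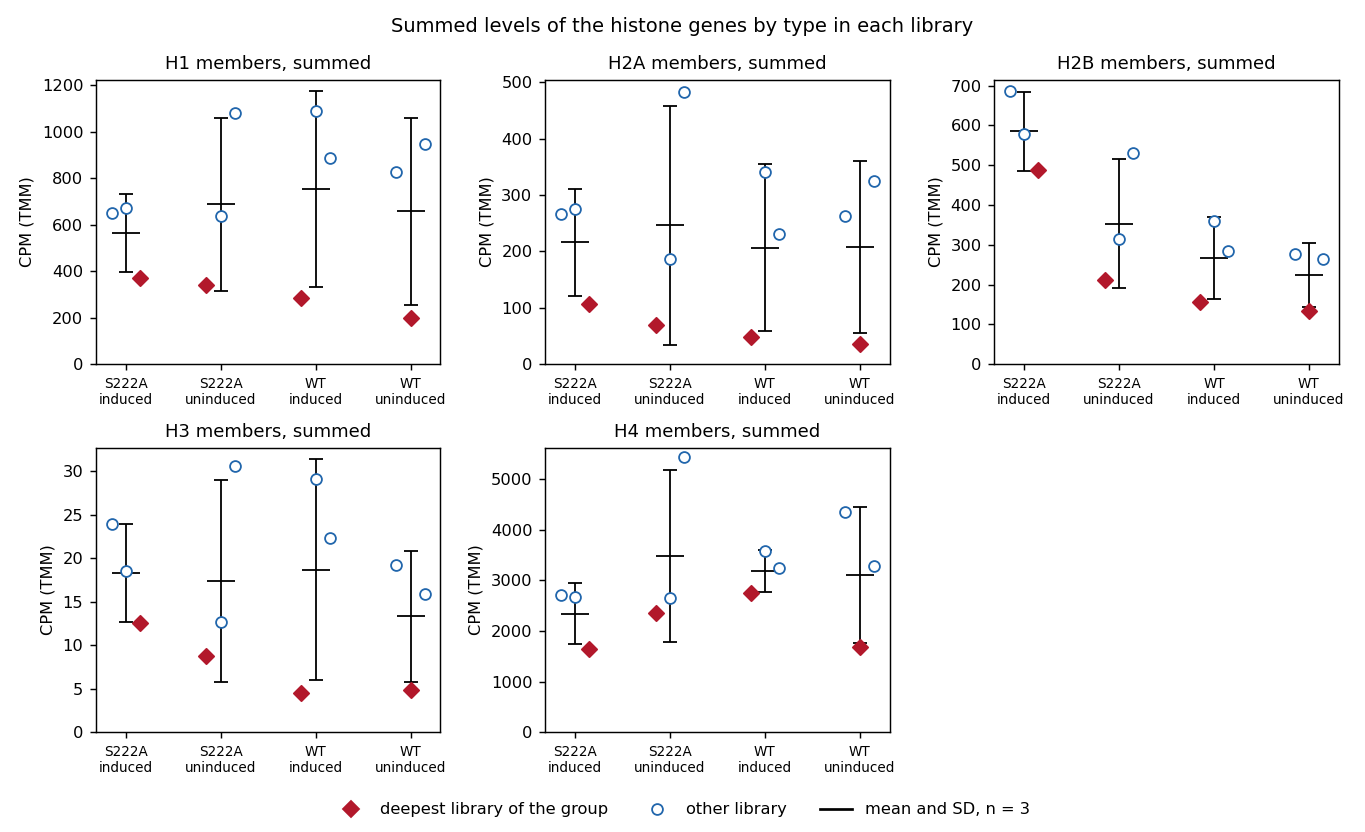
Summed level of all members of each histone type in each library, in CPM with TMM factors (y axes from 0), by group; filled diamonds are the deepest library of each group, open circles the others, and bars the mean and SD of 3 libraries. Within each group the deepest library has the lowest sum for every type, and S222A induced lies above both WT groups for H2B.

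Setting the deepest library of each group against the other 8, in a fit with a mean per group and 1 term for depth class, 24 of the 33 genes were lower in the deepest libraries and 0 were higher. Of all genes, 38.4% were called in this fit and 19.2% were lower. The median log2 difference of the 33 was -1.56, against 0.00 over all genes. HIST1H2BM, an H2B gene, ranged from 2.34 to 4.93 CPM in the 4 deepest and from 16.5 to 99.8 CPM in the other libraries (10.9-fold lower, log2 -3.45 ± 0.45, adjusted p = 0.00043). HIST1H3I (-3.42), HIST2H2BF (-3.29) and HIST1H2AH (-3.19) followed. For 18 of the 33 genes all 4 deepest libraries lay below all others, and how often this held over all genes was not counted. HIST1H4C was lower by less, with a log2 difference of -0.71 ± 0.19 (adjusted p = 0.0154).

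The 9 genes not called in the deepest libraries were HIST1H1PS1, HIST1H2AC, HIST1H2BJ, HIST1H2BK, HIST1H2BN, HIST1H3D, HIST1H3PS1, HIST1H4J and HIST2H2BE. HIST1H2AC (-0.14 ± 0.15), HIST1H2BK (0.02 ± 0.15) and HIST1H3D (-0.16 ± 0.37) were the closest to 0. These 9 hold all genes called on S222A induction, and their log2 fold changes there had a median of 1.28 (range -0.02 to 3.41), while the 24 lower in the deepest libraries had a median of -0.43 (range -1.13 to 0.31) and 0 calls. That fit had no depth term, so a difference by depth class adds to the spread within groups and can make a call harder. With the depth term, 5 histone genes were called on S222A induction, again all among the 9, where 17.9% of all genes were called. The split of calls was not read as a separate result, and its cause was not tested. Among the 9, HIST1H1PS1, HIST1H3D and HIST1H4J passed the filter only through S222A induced libraries, which fixed the direction of HIST1H1PS1 and HIST1H3D. RNAs that carry no poly(A) tail moved with the depth class as well. Of 8 tested, 7 were lower in the deepest libraries, among them RMRP (log2 -3.36) and RN7SL2 (-4.01). The 20 such RNAs in the count table, tested or not, summed to 20.7 to 34.6 CPM there against 60.1 to 123 CPM in the other libraries. Of 9 tested histone variants encoded outside the clusters, 7 were higher in the deepest libraries, H2AFZ by a log2 of 1.21, and 1, H1FX, was lower, where 19.3% of all genes were higher. Of the 6 cluster genes with described polyadenylated transcripts, 3 were lower there, HIST1H2BD (-2.16), HIST1H2BC (-1.56) and HIST1H1C (-0.84), and 0 were higher, with a median of -0.75. The part of library preparation in these values was not tested.

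**Figure D4:**
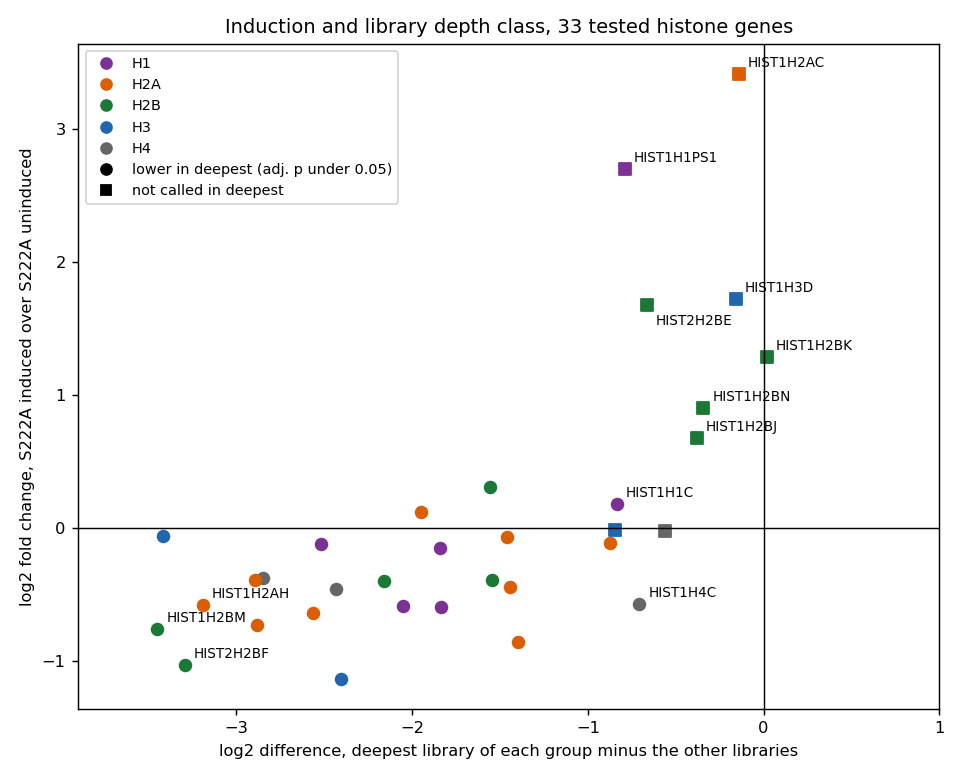
Log2 difference between the deepest library of each group and the other libraries (x axis) against log2 fold change, S222A induced over S222A uninduced (y axis), for the 33 tested histone genes, coloured by type; squares are genes not called on the x axis. HIST1H2AC, HIST1H2BK and HIST1H3D lie near 0 on the x axis and above 1 on the y axis, and the 24 genes called lower in the deepest libraries lie at or below 0.31 on the y axis.

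With the depth term in the model, 5 of the 33 genes were called on S222A induction, all higher, where 17.9% of all genes were called, 8.77% higher and 9.12% lower. HIST2H2BE (log2 1.75 ± 0.37, adjusted p = 0.002) and HIST1H3D (1.69 ± 0.45, adjusted p = 0.0123) joined HIST1H2AC, HIST1H2BK and HIST1H1PS1. Of these 5, HIST1H3D and HIST1H1PS1 passed the filter only through S222A induced libraries, which fixed their direction. The same fit called HIST1H2BK (1.12 ± 0.22, adjusted p = 0.0134) and HIST1H1D (1.60 ± 0.27, adjusted p = 0.00188) higher in S222A uninduced than in WT uninduced cells, where 1.9% of all genes were called, 1.35% higher. On WT induction it called 0 of the 33 and 0.0523% of all genes, all of those higher. For the difference of effects it called HIST1H2AC alone (2.59 ± 0.34, adjusted p = 0.000277), where 1.28% of all genes were called, 0.776% higher and 0.505% lower. Between the induced lines it called 8 histone genes, all higher in S222A induced cells, where 21.6% of all genes were called and 11.6% were higher, and these 8 again include HIST1H3D and HIST1H1PS1.

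Companion genes of histone supply were read on S222A induction from the model without the depth term, in which 2.8% of all genes were higher and 1.66% lower. Of 20 tested chaperone genes, which escort histones to and from chromatin, 0 were higher and 2 were lower, SSRP1, a subunit of the FACT complex (log2 -0.66, adjusted p = 0.0261), and NASP, an H3 and H4 chaperone (-0.54, adjusted p = 0.0488); their median was -0.30. Of 24 genes of S-phase DNA synthesis, 0 were higher and 3 were lower, the helicase subunits MCM4 (-0.67, adjusted p = 0.0358), MCM7 (-0.56, adjusted p = 0.0332) and MCM3 (-0.56, adjusted p = 0.0425), with a median of -0.42. MCM4 stood at 199.5, 212.0 and 185.1 CPM in S222A induced and 284.3, 320.5 and 348.2 CPM in S222A uninduced libraries, without overlap, and was thus lower where HIST1H2AC and HIST1H2BK were higher. None of 18 genes of histone mRNA 3′ processing and transcription was called, among them SLBP, which binds the stem-loop (-0.28, adjusted p = 0.475), and NPAT, a cofactor of histone transcription (0.32, adjusted p = 0.499). None of the 9 tested variants outside the clusters was called, with a median of -0.14. In the WT line 0 genes of these 4 lists were called, where 0.00872% of all genes were called.

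The tested genes most like HIST1H2AC over the 12 libraries, by Pearson correlation of log2 CPM, were CALCOCO2, RPS6KA5, TOX, RUNX2 and INSIG1, with r between 0.97 and 0.99. TOX, a nuclear HMG-box factor, stood at 19.4, 19.2 and 19.8 CPM in S222A induced, 6.13, 7.39 and 5.48 in S222A uninduced, 8.18, 7.85 and 8.42 in WT induced and 6.06, 4.83 and 5.72 CPM in WT uninduced libraries. These values describe likeness of pattern over libraries that share groups and depth. Of the other 32 histone genes HIST1H2BK had the highest such correlation with HIST1H2AC, 0.79, which ranked 436 among 11473 genes.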

How the data were processed

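Per the labels' protocols, the 12 RNA libraries were made with a TruSeq kit. The authors deposited unnormalized counts by gene symbol. The submitters' processing notes name STAR 2.4, HTSeq 0.6.1, DESeq2 and the build hg19. Annotation, strand setting and the handling of reads matching several copies were not given in the sources used here. If HTSeq left such reads out, identical histone copies would be undercounted. The header has a space in place of its last tab, so columns were matched to samples by name and position. Groups come from the sample titles.

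Genes were kept by filterByExpr (minimum count 10), which left 11474 genes with 99.5% of the counts. They were tested with edgeR 4.0.16 (R 4.3.3), robust quasi-likelihood F tests, TMM factors, a mean per group and 8 residual degrees of freedom. Benjamini-Hochberg adjustment covered all tested genes, and calls are adjusted p under 0.05. The common biological coefficient of variation was 24.8%. SE was taken from the fold change and its F statistic, and CPM levels use TMM-scaled library sizes. Replicate pairs differed by 2.64 to 35.2 in chi-square per degree of freedom over 12 pairs, so none was counted as a duplicate. The 5 comparisons share groups: S222A induction with the difference and both comparisons between lines, and likewise for WT. Alternatives were DESeq2 1.42.0, limma-voom 3.58.1, other size factors, no filter, a depth term, a replicate block and leaving out libraries. The code was tested on simulated data.

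Members, gene lists, the depth split and tests were chosen with earlier results of these data known. The text names members called in any comparison, up to 5 higher and 5 lower per comparison by p, the 2 most abundant per type and the polyadenylated list; companion genes are those called, and SLBP, NPAT, H2AFZ, H1FX, RMRP, RN7SL2, HIST1H2AK, HIST1H2AD, AL031777.3 and TOX are named after their values were seen. Sequences are RefSeq promoters (GRCh38.p14) and GENCODE 29 transcripts (GRCh38); no coordinate was taken from the counts, and no protein sequence was printed.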

Additional observations from a re-analysis of the deposited data

Results flagged for a closer look

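HIST1H2AC differed between the lines in its response to doxycycline: the log2 fold change was 3.41 in the S222A line and 0.78 in the WT line, and the contrast of these effects was 2.63 ± 0.34 SE (edgeR quasi-likelihood adjusted p = 0.0184). Of 20 alternative fits, 10 kept the call of this contrast, and construct and clone cannot be told apart. All 3 S222A induced libraries, at 59.2 to 68.9 CPM, lay above all other libraries, at 5.02 to 11.8 CPM. Groups of 3 libraries were too small to look for single outlying libraries.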

How the results depend on the processing

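On S222A induction, HIST1H2AC and HIST1H2BK were called in all 15 alternatives. The count of called histone genes was 5 in the fit of only the 2 groups compared (4.29% of all genes called). It was 5 with a term for the deepest libraries (17.9%), against 3 (4.45%). Without single libraries it was 2 to 3, with 1.61% to 2.99% of all genes called. WT induction gave 0 in all 15 alternatives, with at most 0.0523% of all genes called. The difference of effects gave 0 without the deepest libraries (0.0784% of all genes), and 0 to 1 without single libraries (at most 0.0349%). Between induced lines the count was 8 with the depth term (21.6% of all genes), against 4 (6.34%), and 2 without any single library (2.2% to 4.97%). Without the 4 deepest libraries it was 5 (7.69% of all genes), with HIST1H1B (log2 -0.94) and HIST1H1E (-0.93) called lower. Between uninduced lines it was 1 with DESeq2 (0.723% of all genes), without a filter (0.289%) and without the deepest libraries (0.436%). With the depth term it was 2 (1.9%), against 0 (0.392%). The cause of these changes was not tested, except that fits without libraries have fewer samples. No pairing by replicate number was seen: same-numbered libraries correlated between -0.53 and 0.64 in their deviations over 18 pairs, 6 of them over 0.1, and 0 of 12 libraries correlated best with its own number. The 4 deepest libraries, whose numbers differ, correlated between 0.61 and 0.76, so a weaker pairing by number could go unseen. With the replicate block, the counts were 2 on S222A induction (2.05% of all genes) and 3 between induced lines (3.05%). For the difference the count was 0, as it was over all genes (HIST1H2AC edgeR quasi-likelihood adjusted p = 0.104). Type sums moved by less than 1 SD without HIST1H2AC or without genes under 10 counts. The fit of 2 groups was not run for the difference, which needs all 4, and DESeq2 gave no adjusted p for 5 histone genes there. For the 98 pairs of a gene and a comparison that the naming rule gave, 22 alternative values crossed to a call and 36 lost one. Another 1488 kept their side of the threshold, those not called within 1 SE of the main value. A further 19, not called, moved by more than 1 SE. No call changed direction, and direction was not compared where neither value was called. Depth limits the low genes: 3 counts in the shallowest library equal 3.36 CPM.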
